A study of Homo sapiens with 6 samples.

Results

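Replication-dependent histone genes were examined in A2780 cells, an ovarian carcinoma line, and in the A2780 KO clone, in which CDK12, a kinase of the elongating RNA polymerase II, was edited. Members were taken by symbol: H1-1 to H1-6 and every gene whose symbol starts with H2AC, H2BC, H3C or H4C followed by a number, without pseudogenes. GENCODE release 44 holds 70 such genes and the deposited table of 60483 genes holds 66 of them, namely 6 genes of the H1 family, 15 of H2A, 19 of H2B, 11 of H3 and 15 of H4. The current identifiers of H2AC18, H2AC19, H3C2 and H3C3 are not among its rows, so these genes enter only the sequence results.

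Histones package DNA, and each nucleosome holds a core of H2A, H2B, H3 and H4 that the linker histone H1 closes. The replication-dependent genes supply the bulk of them in S phase, when new DNA has to be wrapped. Their mRNAs are the only animal mRNAs of the nuclear genome known to end normally without a poly(A) tail: the transcript is cut just after a conserved stem-loop, which the stem-loop binding protein SLBP holds and the U7 snRNP helps to cleave. The same genes can also be cut at polyadenylation signals further downstream, and such tailed histone mRNA is found in differentiating cells and in tumor lines. The genes lie in clusters on chromosomes 6 and 1, are short and mostly lack introns, and many of them stand head to head with a partner.

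All libraries came from untreated cells in culture, and 3 were of the parental cells (WT, unedited CDK12) and 3 of the CDK12 KO. The KO group is 1 clone, isolated after successive rounds of CRISPR/Cas9 editing of exon 1 of CDK12, so the effect of the edit and any other property of that clone cannot be told apart. Its DNA content was described as doubled compared with the parental cells, and in bulk RNA a change in the share of cells that express a gene and a change in RNA per cell cannot be told apart either. The labels do not say whether the libraries of a group came from separate cultures, so p-values measure only the spread between these libraries.

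Reads were stranded and 75 bases long, and total counts lay between 11098400 and 30899045 per library. At these depths 3 counts stand for 0.10 to 0.270 CPM (a gene's counts relative to the library total, scaled with edgeR's TMM factors), a floor that covers counting error only. CDK12 itself stood at 115 ± 11.1 CPM in WT and 98.0 ± 4.64 CPM in KO cells (SD, n = 3 each), and counts per gene do not tell edited from unedited mRNA. Of 11 epithelial and ovarian carcinoma markers 4 passed the filter on low counts, namely KRT8, KRT18, MSLN and EPCAM, while the summed level of the list was 69.7 to 75.4 CPM in WT and 117 to 121 CPM in KO libraries, most of it KRT18. EPCAM went the other way, lower in every KO library (log2 fold change -0.53, adjusted p = 0.0119, edgeR quasi-likelihood test). PAX8, a Müllerian lineage factor, lay at or under 0.219 CPM in every library. Of 12 immune, fibroblast and endothelial markers, the immune and endothelial genes PTPRC, CD3E, PECAM1 and CDH5 did not pass the filter, and the summed level of the list was 6516 to 6770 CPM in WT and 5964 to 6181 CPM in KO libraries, most of it COL3A1. Of that list COL1A1, DCN and LUM fell, the last 2 to no counts in KO libraries, and VWF rose. Their part in the histone results was not tested.

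The stem-loop is shown first, since it is the feature that sets these mRNAs apart. It was found in 69 of the 70 genes within 300 bases after the stop codon, beginning 22 to 67 bases after it, and H2BC12L was the exception. Only 10 distinct versions of its 16 bases occurred: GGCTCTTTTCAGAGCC in 40 genes of the H1, H2A, H2B and H3 families, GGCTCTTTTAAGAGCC in 9, and in the H4 family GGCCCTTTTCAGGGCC in 10 genes and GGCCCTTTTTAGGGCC in 4. All 15 H4 genes, and no gene of another family, began the stem with GGCCC. The 26-base stretches below are read from GRCh38 along the strand of each gene, 5′ to 3′, with the stem-loop in capitals. They belong to the genes on which the results turn most: H1-2, an H2A gene and H2B genes that rose, H2AC20, which did not, and H4C16 as an H4 gene.
H1-2, chr6:26055744-26055759, minus strand: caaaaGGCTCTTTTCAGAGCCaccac
H2AC6, chr6:26124669-26124684, plus strand: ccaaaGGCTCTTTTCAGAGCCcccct
H2BC12, chr6:27146366-27146381, minus strand: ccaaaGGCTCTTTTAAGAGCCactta
H2BC21, chr1:149886188-149886203, minus strand: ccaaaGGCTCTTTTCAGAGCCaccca
H2AC20, chr1:149887391-149887406, plus strand: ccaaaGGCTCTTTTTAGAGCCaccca
H4C16, chr12:14770724-14770739, minus strand: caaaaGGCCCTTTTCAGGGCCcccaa
The coordinates are those of the capitals, which lie in the 3′ UTR of the mRNA. H1-2, H2AC6 and H2BC21 share the commonest version.

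The summed level of the 66 histone genes was higher in KO cells. It was 43.0, 40.4 and 44.03 CPM in the WT libraries and 101, 96.5 and 100.4 CPM in the KO libraries, so that the groups did not overlap and the KO mean was 2.34 times the WT mean. All histone genes together took 0.00392 to 0.00441% of the counts of a WT library and 0.00980 to 0.0103% of those of a KO library. Each of the 5 families had a higher sum in every KO library than in any WT library. The sum of the H1 family was 9.55 ± 0.329 CPM in WT against 27.4 ± 0.855 CPM in KO cells (SD, n = 3 each), a ratio of 2.87. For H2B it was 12.5 ± 0.675 against 35.5 ± 0.615 CPM (SD, n = 3 each), a ratio of 2.83. The ratio was greatest in these families, and H3 followed with 2.01 ± 0.184 CPM in WT against 4.96 ± 0.387 CPM in KO cells (SD, n = 3 each), a ratio of 2.47. The ratio was smaller for H4, at 1.74 (2.52 ± 0.546 against 4.39 ± 0.513 CPM, SD, n = 3), and for H2A, at 1.71 (15.9 ± 1.37 against 27.2 ± 1.29 CPM, SD, n = 3). A large part of the H2A sum came from H2AC25 alone, with 7.71 ± 0.913 CPM in WT and 9.23 ± 0.561 CPM in KO cells (SD, n = 3). The smaller H2A ratio is therefore not a statement about each H2A gene.

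Single genes could be tested for 21 of the 66 (31.8%), those that passed edgeR's filter on low counts. KO was compared with WT by edgeR's quasi-likelihood test over 16198 genes, and a gene was called where its log2 fold change (log2FC) lay beyond 1 and its Benjamini-Hochberg adjusted p under 0.05. Of the tested histone genes 16 rose, none fell and 5 were not called, beside 8.3% of all tested genes that rose and 7.73% that fell. At an unadjusted p under 0.05, 2 were lower and 0 of them beyond the fold threshold, and voom/limma and DESeq2 also called 0 down. By the adjusted p alone 17 were higher, 1 (H2BC26) was lower and 3 passed in neither direction, beside 31.9% higher and 32% lower among all tested genes. The KO values lay above all WT values for 17 genes, below them for H2AC20 and H2BC26, and overlapped for H4C3 and H4C8, beside 32.8% above and 33.5% below among all tested genes. The log2FC of the 21 ranged from -0.62 to 2.28 with a median of 1.31, where the median over all tested genes was 4.43e-04. These counts cannot be read as support for a rise of the whole group, because 8 of the 21 passed the filter only through their KO libraries and so had to be higher there. The 12 that would have passed on either group alone held 8 that rose and 4 that were not called, with a median of 1.31. The remaining gene, H4C8, passed through 1 WT and 2 KO libraries together.

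**Figure D1:**
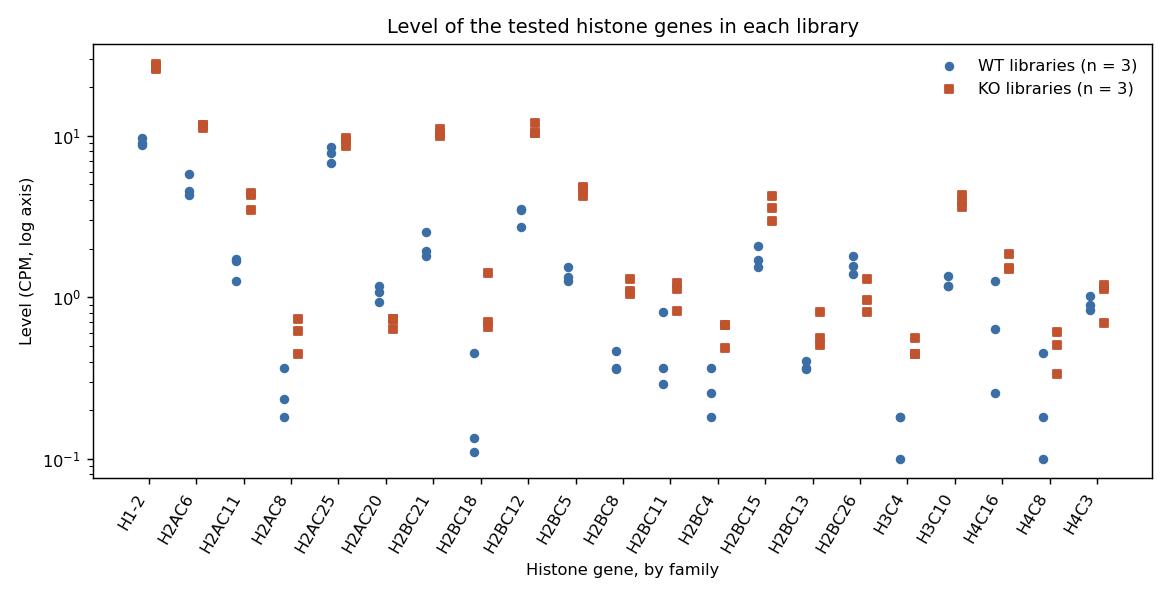
Level of the 21 tested histone genes in each library, in CPM on a log axis, with circles for WT and squares for KO libraries. The squares lie above the circles for 17 genes, below them for H2AC20 and H2BC26, and among them for H4C3 and H4C8.

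The linker histone family was carried by 1 gene. H1-2 (ENSG00000187837, chromosome 6, 26055740 to 26056470) is one of the common somatic linker histones and the histone gene with the highest level per kilobase of exon, at 12.6 CPM per kb in WT and 36.8 in KO cells. Its level was 9.05, 9.71 and 8.82 CPM in the WT libraries and 26.82, 26.04 and 27.93 CPM in the KO libraries, far apart in every pair of libraries. The log2FC was 1.53 ± 0.0789 (SE, edgeR quasi-likelihood test, adjusted p = 1.28e-17). H1-2 made up 21.6% of the counts scaled to CPM of all histone genes in WT and 27.1% in KO cells. H1-4, the H1 gene with the next highest level per kilobase, had 7, 1 and 3 counts in WT and 5, 6 and 4 in KO libraries and was not tested. The testis gene H1-6 and the somatic genes H1-1, H1-3 and H1-5 had at most 8 counts in the sum of a group.

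H2A, which pairs with H2B on the surface of the nucleosome, was represented by 5 tested genes. Of these 3 rose, beside 8.3% of all tested genes. H2AC8, among the 3, passed the filter only through KO libraries, and of the 4 that passed on either group alone 2 rose. H2AC6 (ENSG00000180573) stood at 4.53, 4.27 and 5.76 CPM in the WT libraries and at 11.7, 11.6 and 11.2 CPM in the KO libraries, a log2FC of 1.31 ± 0.111 (SE, edgeR quasi-likelihood test, adjusted p = 4.85e-12). H2AC11 was the H2A gene with the highest mean level per kilobase of GENCODE exon, though under H2AC6 in CPM. It had 1.72, 1.67 and 1.26 CPM in WT and 4.40, 3.45 and 4.27 CPM in KO libraries. Its log2FC was 1.31 ± 0.172 (SE, edgeR, adjusted p = 6.72e-08). Both genes thus rose by the same amount to within their standard errors. H2AC8 was counted 10, 7 and 2 times in WT and 18, 12 and 11 times in KO libraries, and its call (log2FC 1.08, adjusted p = 0.0155, edgeR) was lost with DESeq2, at an adjusted p of 0.0859, and without WT replicate 2, WT replicate 3 or KO replicate 1, where the log2FC lay between 0.88 and 0.98.

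The remaining H2A genes did not pass. H2AC25, which lies apart from the large clusters on the long arm of chromosome 1, had 7.85, 6.74 and 8.55 CPM in WT and 9.44, 9.66 and 8.60 CPM in KO libraries. KO values were above all WT values, by 8.60 against 8.55 CPM at the closest, and the log2FC of 0.30 (adjusted p = 0.0145, edgeR) stayed under the fold threshold. H2AC20 stood at 1.17, 0.935 and 1.08 CPM in WT and 0.733, 0.631 and 0.730 CPM in KO libraries, lower in all KO libraries, with a log2FC of -0.60 (95% confidence interval -1.12 to -0.07) and an adjusted p of 0.0505 (edgeR).

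H2B was the family with the most tested genes, and 8 of its 10 rose, beside 8.3% of all tested genes. Of these 10, 5 passed the filter only through KO libraries, and 4 of the other 5 rose. H2BC21 (ENSG00000184678, chromosome 1, 149884459 to 149886682) had 2.52, 1.94 and 1.80 CPM in the WT libraries and 10.9, 10.3 and 10.0 CPM in the KO libraries. At a log2FC of 2.28 ± 0.132 (SE, edgeR quasi-likelihood test, adjusted p = 3.17e-16), or 4.85-fold, it had the highest fitted rise of all tested histone genes. H2BC18, which lies in the same part of chromosome 1, came next at 2.27 ± 0.443 (SE, edgeR, adjusted p = 4.29e-05). Its counts were low, with 3, 4 and 5 in WT and 16, 19 and 25 in KO libraries, and it passed the filter only through the KO libraries. Only 39.2% of its 75-base windows occur once in the genome, its annotated model reaches 29196 bases past the stem-loop, and FCGR1A lies within that model on the other strand.

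H2BC12 and H2BC5 of chromosome 6 rose by similar amounts. H2BC12 (ENSG00000197903) had 3.47, 2.70 and 3.51 CPM in WT and 10.42, 10.44 and 11.97 CPM in KO libraries, a log2FC of 1.78 ± 0.124 (SE, edgeR, adjusted p = 3.24e-14). It had the highest level per kilobase of the family, at 6.52 CPM per kb in WT and 22.1 in KO cells, and 61.0% of its windows are unique. H2BC5 (ENSG00000158373) had 1.53, 1.34 and 1.26 CPM in WT and 4.80, 4.68 and 4.21 CPM in KO libraries, a log2FC of 1.71 ± 0.166 (SE, edgeR, adjusted p = 1.18e-10). The groups were well apart in both genes, and the value of H2BC5 lay between 1.66 and 1.80 when single libraries were left out.

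The other H2B genes had fewer counts. H2BC8 rose with a log2FC of 1.45 (10, 14 and 4 counts in WT, 27, 28 and 23 in KO libraries, adjusted p = 8.01e-05, edgeR) and H2BC11 with 1.33 (8, 11 and 9 against 30, 22 and 20 counts, adjusted p = 7.71e-04, edgeR). H2BC15 had 57, 51 and 17 counts in WT and 88, 114 and 53 in KO libraries, and its log2FC of 1.00 (adjusted p = 8.44e-06, edgeR) lay on the fold threshold and fell to between 0.86 and 0.95 without WT replicate 2, WT replicate 3 or KO replicate 2. H2BC4, with 7, 11 and 2 counts in WT and 12, 18 and 12 in KO libraries, passed at 1.04 (adjusted p = 0.0157, edgeR) but not with DESeq2, at an adjusted p of 0.0884, nor without any one of WT replicate 1, WT replicate 3, KO replicate 2 or KO replicate 3. HFE and H4C3 lie within its annotated model on the other strand. The calls of H2BC15 and H2BC4 thus rested on single libraries, while those of H2BC8 and H2BC11 stood without any one library. H2BC4, H2BC8 and H2BC11 passed the filter only through KO libraries, the group where they were high. Standing without a library is therefore no support for their rise. H2BC15 passed on either group alone.

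H2BC13 and H2BC26 were not called. H2BC13 had 11, 11 and 4 counts in WT and 20, 15 and 9 in KO libraries, a log2FC of 0.73 (adjusted p = 0.0657, edgeR). H2BC26, the partner of H2AC25, had 1.39, 1.57 and 1.80 CPM in WT and 0.814, 0.966 and 1.29 CPM in KO libraries. Its KO values lay below all WT values, and the log2FC of -0.62 had an adjusted p of 0.0212 (edgeR), lower by the adjusted p alone and short of the fold threshold.

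**Figure D2:**
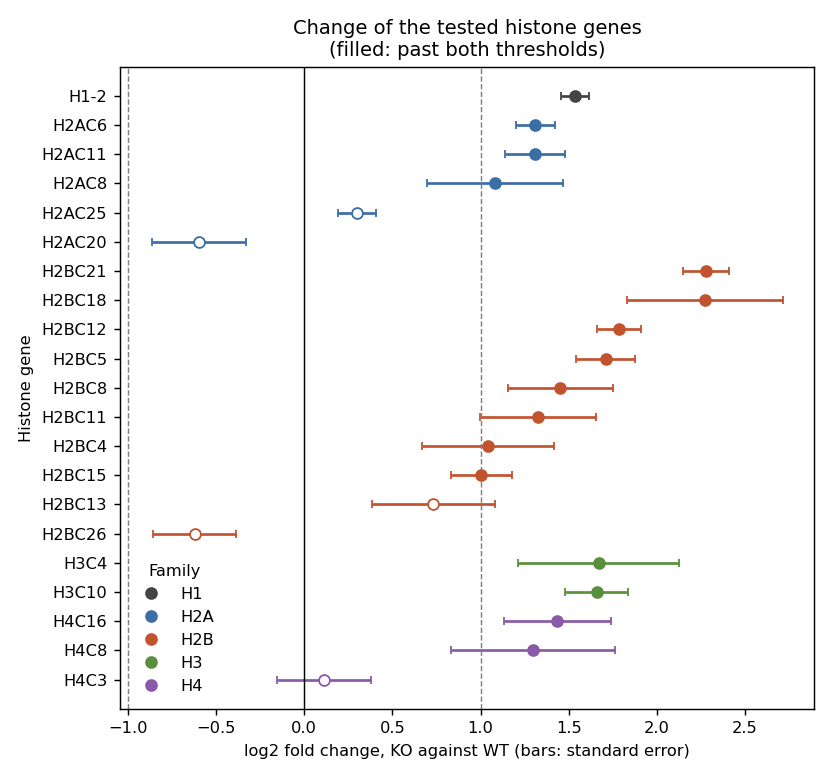
log2FC of KO against WT for the 21 tested histone genes, with bars for the standard error of the edgeR fit, colors for the family and filled circles for genes past both thresholds (dashed lines at 1 and -1). H2BC21 and H2BC18 lie furthest to the right, at 2.28 and 2.27, and H2AC20 and H2BC26 alone lie left of 0.

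Of the H3 and H4 genes, which form the tetramer at the center of the nucleosome, 5 could be tested. H3C10 (ENSG00000278828), an H3 gene of the second 6p22 cluster, had 1.35, 1.17 and 1.17 CPM in WT and 4.27, 3.64 and 3.88 CPM in KO libraries, with a log2FC of 1.66 ± 0.177 (SE, edgeR quasi-likelihood test, adjusted p = 9.66e-10). H3C4 was counted 5, 3 and 2 times in WT and 11, 12 and 10 times in KO libraries, a log2FC of 1.67 ± 0.456 (SE, edgeR, adjusted p = 0.00193). Both tested H3 genes were called, beside 8.3% of all tested genes that rose, but H3C4 passed the filter only through its KO libraries. Its WT counts lay near the floor, and H3C10 was the only H3 gene that passed on either group alone.

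The H4 genes differed among themselves. H4C16 (ENSG00000197837), the only member on chromosome 12, had 7, 19 and 14 counts in WT and 37, 41 and 33 in KO libraries, a log2FC of 1.44 (adjusted p = 1.24e-04, edgeR). The WT libraries spread from 0.255 to 1.26 CPM, and without WT replicate 1 the log2FC was 0.97. H4C16 passed the filter only through its KO libraries. H4C8 had 5, 3 and 5 counts in WT and 15, 9 and 9 in KO libraries. It passed the filter through 1 WT and 2 KO libraries together. Its groups overlapped in CPM (exact permutation test, p = 0.2, two-sided), and its call at 1.30 (adjusted p = 0.0161, edgeR) was lost with DESeq2 (adjusted p = 0.111) and without WT replicate 1, WT replicate 2 or KO replicate 1. H4C3, with the highest level per kilobase of the family, stood at 1.02, 0.834 and 0.900 CPM in WT and 0.692, 1.19 and 1.12 CPM in KO libraries. Its values overlapped (exact permutation test, p = 0.8, two-sided) and its log2FC of 0.11 had a 95% confidence interval of -0.41 to 0.64 and an adjusted p of 0.726 (edgeR).

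For every tested gene whose groups did not overlap, the exact permutation test gave p = 0.1, two-sided, the smallest that 3 libraries against 3 allow.

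Most histone genes were hardly counted at all. In the 45 genes that were not tested, no single count exceeded 16, and 12 of them had no count in any library. Their counts added up to 198 over the WT and 271 over the KO libraries, or 2.78 ± 0.381 CPM in WT and 3.91 ± 0.949 CPM in KO cells (SD, n = 3 each). The level was higher in KO for 24 of them and lower for 9. H4C9, next to H4C3 in level per kilobase, had 8, 10 and 0 counts in WT and 16, 10 and 13 in KO libraries. H3C6 went the other way, with 4, 10 and 1 counts in WT and 0 in each KO library, where 0 counts allow up to 0.111 to 0.169 CPM. H3C6 was named after its values were seen, as were the other genes of the next comparison. When edgeR was run without the filter, 33 of the untested genes could be fitted. Of these H3C6 and H2BC10 were lower and H4C9, H2AC21 and H2BC7 higher at an adjusted p under 0.05. In the main fit 31.9% of all tested genes were higher and 32% lower by that measure. The share without the filter is not given here, so these calls are no result about the untested genes. Near-identical copies limit what such counts can say: 11 of the 66 genes have fewer than 50% unique 75-base windows, and H2BC12L, H3C14, H3C15, H4C14 and H4C15 have none and 9 counts in all. Of the tested genes 18 had at least 95% unique windows, the others being H2AC20 (82.1%), H2BC12 and H2BC18.

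Since the normal histone mRNA ends at the stem-loop, the annotated gene models were compared by how far they run past it. In 17 genes of the table a model reaches more than 100 bases past the stem-loop, and 12 of these (70.6%) were tested. Of the 7 long ones that passed the filter on either group alone, 5 rose, beside the 8.3% of all tested genes that rose. In 48 genes the models end at or near the stem-loop, and 9 of these (18.8%) were tested. Of the 5 short ones that passed on either group alone, 3 rose. In each kind 4 further genes passed only through KO libraries, and H4C8, of the long kind, passed through 1 WT and 2 KO libraries together. No comparison between the kinds was made. H1-2, H2BC12 and H2AC11 belong to the short kind, H2BC21, H2BC5, H2AC6 and H3C10 to the long. How the annotation used for counting drew these genes is not given in the sources used here, nor is whether the libraries were made from poly(A) RNA or after removal of ribosomal RNA.

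A list of RNAs that have no poly(A) tail was read beside the histone genes. Of 20 listed, 19 were in the table, 9 had no count in any library, and together they reached 0.843 to 1.42 CPM per library. RMRP and RN7SL1, abundant RNAs of ribosomal RNA processing and of the signal recognition particle, were listed at 0 in all libraries. SCARNA12 alone passed the filter, with 0.328, 0.300 and 0.630 CPM in WT and 0.651, 0.557 and 0.225 CPM in KO libraries (log2FC 0.45, adjusted p = 0.33, edgeR). The summed level was 0.949, 0.901 and 1.17 CPM in WT and 1.42, 1.34 and 0.843 CPM in KO libraries, so the groups overlapped, unlike those of the histone sum. Its part in the histone result was not tested.

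By position, genes that rose lay in both clusters of 6p22 and in 1q21, and none at 1q42. H4C16, the only member on chromosome 12, was also called, but it passed the filter only through its KO libraries. In the first 6p22 cluster (chromosome 6, 25723397 to 26285638), 8 of 9 tested genes rose. Of the 9, 4 had passed the filter only through KO libraries and H4C8 through libraries of both groups, and of the 4 that passed on either group alone 3 rose. The summed level went from 19.4 ± 0.346 to 49.0 ± 1.02 CPM (SD, n = 3). In the second (chromosome 6, 27125897 to 27893891), 5 of 6 rose, and of the 4 that passed on either group alone 4 did, beside the 8.3% of all tested genes that rose. The sum went from 9.60 ± 0.756 to 26.1 ± 1.24 CPM (SD, n = 3). The 1q21 genes (chromosome 1, 149782689 to 149887965) had the highest ratio of sums, 3.56, with 3.45 ± 0.365 CPM in WT and 12.3 ± 0.519 CPM in KO cells (SD, n = 3). This rested on H2BC21: without it the 1q21 sum was 1.37 ± 0.231 CPM in WT and 1.90 ± 0.563 CPM in KO cells (SD, n = 3), a ratio of 1.39. At 1q42, where H2AC25 and H2BC26 lie, the sum was 9.30 ± 1.02 CPM in WT and 10.3 ± 0.368 CPM in KO cells (SD, n = 3), and neither gene was called.

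The other genes within the same stretches were few. In the first 6p22 stretch 3 could be tested, of which TRIM38, an E3 ubiquitin ligase gene, rose with a log2FC of 1.10, while HFE, the hemochromatosis gene, had -0.02 and LINC02980 0.05. In the second none of 5 was called, and their median was -0.08, with ZNF184 the highest at 0.78. BOLA1, the only such gene of 1q21 that could be tested, had 0.55. These are counts over a handful of genes and no test was made of them.

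Head-to-head pairs allow a comparison within one library, since the annotated length of each gene and the scaling cancel in the change of their ratio. A change in how far the transcripts run past the stem-loop would not cancel, and it was not tested. The annotated model of H2BC21 reaches 1729 bases past the stem-loop and that of H2AC20 5 bases. There were 14 pairs with starts within 1000 bases of each other, and in 5 of them both genes were tested. In the pair of H2BC21 and H2AC20, whose starts enclose 235 bases, H2AC20 had 0.464, 0.483 and 0.6 counts per count of H2BC21 in the WT libraries and 0.0669, 0.0616 and 0.0730 in the KO libraries. The ratio fell by 2.93 on the log2 scale with no overlap (exact permutation test, p = 0.1, two-sided). Within this pair the H2B gene rose and the H2A gene did not. At 1q42 the ratio of H2BC26 to H2AC25 fell by 0.91 on the log2 scale, from 0.177, 0.233 and 0.211 to 0.0862, 0.1 and 0.1503, again without overlap (exact permutation test, p = 0.1, two-sided). In the other pairs the values overlapped: the log2 ratio changed by 0.03 for H2AC6 to H2BC4 and by 0.16 for H2AC11 to H2BC11 (exact permutation tests, p = 1 in both, two-sided), and by -0.29 for H2AC8 to H2BC8 (exact permutation test, p = 0.5, two-sided). In these overlapping pairs H2BC4, H2BC11, H2AC8 and H2BC8 passed the filter only through KO libraries. Over all 5 ratios the smallest p the design allows is 0.1, so none can pass 0.05.

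The promoters of these genes share short motifs. RefSeq promoters (GRCh38.p14, 250 bases before to 50 after the start) were at hand for 64 of the 70 genes and were searched on both strands. CCAAT, the box bound by NF-Y, was in 84.4% of them and in 35.7% of all 27305 promoters. TATAAA was in 65.6% against 12%, and ATTTGCAT, the octamer bound by OCT1 (POU2F1), in 39.1% against 1.8%. The families differ: every H1, H2A, H2B and H3 promoter held CCAAT but only 23.1% of the H4 promoters, and the octamer was in 77.8% of H2B, 68.8% of H2A and in none of the H1, H3 or H4 promoters. The octamer is shown with its surroundings, in capitals and 5′ to 3′ along the strand of the gene, for the H2B genes with the highest rise or level that hold it, for H2BC11, and for H2AC20.
H2BC21, chr1:149886710-149886739, minus strand: tcggagccctaATTTGCATaaggtggttat
H2AC20, chr1:149886710-149886739, plus strand: ataaccaccttATGCAAATtagggctccga
H2BC12, chr6:27146886-27146915, minus strand: ctcttcaccttATTTGCATgagaggtccta
H2BC11, chr6:27132824-27132853, minus strand: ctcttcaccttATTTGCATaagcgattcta
The H2BC21 and H2AC20 lines are one stretch of the genome read from either strand: its octamer begins 46 bases before the start of H2BC21 and 197 bases before that of H2AC20. H2BC21 rose and H2AC20 did not, and both windows hold these letters. A match is no measurement of binding.

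Genes that make histone mRNA, handle the protein or act in S phase were read from 5 lists with 98 tested genes in all. None of the 98 was called up, beside 8.3% of all tested genes that rose and 7.73% that fell. SLBP, CASP8AP2, CHAF1A, CHAF1B, CCNE1, CCNE2 and E2F1 are shared between lists, and the 98 are distinct genes. The highest log2FC among the 98 was 0.91, so 0 passed the fold threshold at an unadjusted p under 0.05 in edgeR, and voom/limma and DESeq2 also called 0 up. Of the listed factors that form, export or degrade the 3′ end of histone mRNA, 25 of 26 were tested. None rose, ERI1 fell, and by the adjusted p alone 3 were higher and 13 lower, beside 31.9% and 32% of all tested genes, with a median log2FC of -0.15. ERI1, the exonuclease that trims the histone stem-loop during mRNA decay, had 270, 272 and 274 CPM in WT and 77.8, 70.8 and 72.9 CPM in KO libraries. Its log2FC was -1.88 ± 0.0501 (SE, edgeR quasi-likelihood test, adjusted p = 1.32e-25), with all KO libraries far under the WT libraries. SLBP had 107, 113 and 112 CPM in WT and 84.0, 84.2 and 78.6 CPM in KO libraries, a log2FC of -0.42 (adjusted p = 9.55e-09, edgeR), lower in every KO library and short of the fold threshold.

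The other named 3′ end factors moved less. CASP8AP2 (FLASH), which joins the U7 snRNP, had a log2FC of -0.30 (adjusted p = 1.61e-05, edgeR), while the U7-specific LSM11 had 0.20 (adjusted p = 0.0169, edgeR) and LSM10 -0.07 (adjusted p = 0.352, edgeR). ZNF473, a U7 snRNP partner, had -0.12 (adjusted p = 0.136, edgeR), and UPF1, a helicase of histone mRNA decay, -0.07 (adjusted p = 0.26, edgeR). The U7 RNA gene RNU7-1 had no counts in any library.

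Among factors that act on transcription of histone genes, 10 were tested. None rose and CCNE2 fell, beside 8.3% and 7.73% of all tested genes. By the adjusted p alone 1 was higher and 6 lower (31.9% and 32% of all tested genes), with a median log2FC of -0.15. NPAT, the coactivator of histone loci, had 39.9, 41.5 and 40.3 CPM in WT and 46.3, 41.7 and 44.8 CPM in KO libraries (log2FC 0.12, adjusted p = 0.0679, edgeR), and HINFP, which binds H4 promoters, had 0.16 (adjusted p = 0.0793, edgeR). CCNE2, a cyclin E that with CDK2 activates NPAT, went from 2.81, 3.77 and 3.87 CPM in WT to 0.651, 0.594 and 0.337 CPM in KO libraries, a log2FC of -2.63 ± 0.235 (SE, edgeR, adjusted p = 1.69e-11). POU2F1, which binds the octamer, was lower by the adjusted p alone, at -0.20 (adjusted p = 0.00137, edgeR).

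S phase genes were mostly lower by the adjusted p alone. Of 36 tested, 4 were higher and 28 lower on that measure, beside 31.9% higher and 32% lower among all tested genes, with a median log2FC of -0.24. None rose past both thresholds and CCNE2, the same gene as in the transcription list, fell, beside 8.3% and 7.73% of all tested genes. PCNA, the sliding clamp of DNA polymerase, had 289, 288 and 294 CPM in WT and 224, 237 and 217 CPM in KO libraries (log2FC -0.36, adjusted p = 5.82e-08, edgeR). RRM2, a ribonucleotide reductase subunit, had -0.40 (adjusted p = 8.72e-09, edgeR), and CDT1, a licensing factor, stood on the other side at 0.43 (adjusted p = 7.71e-09, edgeR). The list's summed level was 5062 to 5301 CPM in WT and 4384 to 4504 CPM in KO libraries. Cell cycle phases were not measured in these libraries.

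Histone chaperones, which escort new histones to DNA, were mostly lower by the adjusted p alone: of 22 tested, 14 were lower and 2 higher, beside 32% lower and 31.9% higher among all tested genes. None passed both thresholds, beside 8.3% up and 7.73% down among all tested genes, and the median log2FC was -0.21. HAT1, which acetylates new H4, went from 307 ± 1.44 to 163 ± 5.71 CPM (SD, n = 3), a log2FC of -0.91 (adjusted p = 1.27e-17, edgeR). The chromatin assembly factor gene CHAF1A had -0.25 (adjusted p = 7.02e-05, edgeR), NASP, which keeps a pool of H3 and H4, -0.20 (adjusted p = 3.17e-04, edgeR), and ASF1B 0.11 (adjusted p = 0.0658, edgeR).

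Histone variant genes encode histones that can replace the replication-dependent ones at particular places. None of 12 passed both thresholds, beside 8.3% up and 7.73% down among all tested genes. By the adjusted p alone 6 were higher and 3 lower, beside 31.9% higher and 32% lower among all tested genes, and the median log2FC was 0.16. H2AJ, an H2A variant, was the highest, with 15.3, 12.4 and 13.3 CPM in WT and 24.9, 26.1 and 26.6 CPM in KO libraries, a log2FC of 0.91 (adjusted p = 8.85e-12, edgeR). It stayed under the fold threshold and passed it only without WT replicate 1. H2AZ1, a variant found at promoters, was the lowest, from 699 ± 13.6 to 474 ± 20.5 CPM (SD, n = 3) with a log2FC of -0.56 (adjusted p = 4.26e-12, edgeR). Of the H3.3 genes H3-3A had 0.51 (adjusted p = 5.34e-08, edgeR) and H3-3B 0.21 (adjusted p = 2.82e-04, edgeR). The linker variant H1-10 had 0.20 (adjusted p = 0.00606, edgeR), and H2AX, the variant phosphorylated at DNA breaks, 0.04 (adjusted p = 0.59, edgeR).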

How the data were processed

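RNA-seq of 3 WT and 3 CDK12 KO libraries of A2780 cells was used, grouped by the genotype in the labels. The authors deposited raw counts per gene, made with FastQC, STAR (GRCh38) and HTSeq per the paper's methods and the submitters' processing notes. Tool versions, the annotation release, the strand setting and the handling of multi-mapping reads are not given in the sources used here. The table holds 60483 Ensembl genes, of which 56321 (93.1%) matched GENCODE release 44. Within a group, counts of any 2 libraries were further apart than sampling noise (chi-square per degree of freedom 1.72 to 7.05), so each was used as a library of its own.

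The members and all gene lists were chosen with earlier results of these data known. The comparison of KO and WT used edgeR 4.0.16 under R 4.3.3: filterByExpr (minimum count 10, minimum total count 15), TMM, quasi-likelihood test, two-sided, Benjamini-Hochberg adjustment over all 16198 genes kept, and the thresholds of the paper's methods (adjusted p under 0.05, log2 fold change above 1 or below -1). CPM used TMM-scaled totals; depth limits low genes, and 3 counts were taken as the floor. Ratios and single genes were compared by exact permutation tests of log2 values. Alternatives were voom/limma (limma 3.58.1), DESeq2 1.42.0, other normalizations and filters, an adjusted p under 0.01, each library left out, and, chosen after seeing the data, thinning to the smallest total.

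Named are all histone genes past both thresholds, in each family the 2 highest per kilobase of exon and the 2 with the largest rise and fall past the adjusted p, CDK12, 21 fixed genes of histone biology, and list genes past both thresholds. Other genes were named after their values were seen. Exon lengths are those of GENCODE release 44, so ranks per kilobase depend on its gene models. Some single genes of the lists are not reported here. Stem-loops were searched in the reference within 300 bases after the stop codon, and uniqueness is the share of a gene's 75-base exon windows found once in GRCh38. Promoters came from RefSeq (GRCh38.p14); where a histone gene had several, the start nearest its stem-loop was used. On counts simulated for this comparison with 200 of 15938 genes changed, edgeR, voom/limma and DESeq2 recovered 197, 198 and 197, with 1, 3 and 0 false calls. The changed genes were drawn above a cutoff on mean level and all changes lay past the fold threshold. The recovery therefore does not cover genes with low counts or with changes near that threshold. The rest was done in Python 3.11.15 (pandas 2.3.3, numpy 2.4.6, matplotlib 3.10.9).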

Additional observations from a re-analysis of the deposited data

How the results depend on the processing

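No paired analysis was possible because the libraries carry running numbers from 1 to 6 in the labels, so no WT library shares a number with a KO library. Under voom/limma, median-of-ratios and upper-quartile normalization 16 histone genes rose, beside 8.28%, 8.32% and 8.62% of all tested genes in turn. In these fits too, 8 of the 21 tested histone genes passed the filter only through KO libraries. Such counts, also those with libraries left out, are therefore no support for a rise of the whole group. By the adjusted p alone 17 histone genes were higher and 1 was lower, beside 31.9% and 32% of all tested genes in the main fit. With library totals only these counts were the same, beside 8.85% of all tested genes that rose, and the median log2 fold change was 1.36. DESeq2 called 13 higher, all past the fold threshold, and 0 lower, beside 7.81% of all tested genes that rose. Without the filter 54 histone genes could be fitted: 19 rose and 2 fell, beside 5.96% of all fitted genes that rose. Of the 54, 3 were lower by the adjusted p alone, and the median was 1.09. With at least 10 counts in every library 12 were left, of which 8 rose, beside 4.24% of all tested genes. Of the 12, 9 were higher by the adjusted p alone. With counts thinned to the depth of the smallest library, an alternative chosen after seeing the data, 13 were left. Of these 10 rose, beside 6.77% of all tested genes, 10 were higher, 0 were lower by the adjusted p alone and the median was 1.54. These filters and thinning change the number of genes tested by construction. At an adjusted p under 0.01, 13 rose, and over the 20 genes with at least 50% unique windows the median was 1.31. The share of all tested genes at that stricter threshold is not given here. Nor are shares of falls, or by the adjusted p alone, under the alternatives. In the main fit 7.73% of all tested genes fell. Counts of those kinds are therefore not read as a result about the histone genes. With each library left out in turn 13 to 15 rose and 0 fell, beside 8.28 to 9.10% of all tested genes that rose. By the adjusted p alone 15 to 17 histone genes were higher and 0 to 1 lower, and their median lay between 1.21 and 1.45. H2BC26 was the gene lower by the adjusted p alone, and it was lost without KO replicate 1 and without KO replicate 2. No result changed its direction under any of these alternatives for a gene that was called, and the median over all tested genes stayed within 0.05 of 0. Depth limits the genes with few counts: WT replicate 3 had the smallest total, and its floor of 0.270 CPM lies above the level of most histone genes that were not tested.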
